A study of Mus musculus with 4 samples.

Results

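AMPA receptors are the ion channels that carry most fast excitatory transmission between neurons. Each is a tetramer of pore subunits encoded by Gria1, Gria2, Gria3 and Gria4, and auxiliary proteins bound to the tetramer set how it leaves the endoplasmic reticulum, where it is held at the synapse and how it gates. The mRNAs of 10 genes of this family were followed here in mouse primary cortical neurons. They are the 4 pore subunits and 6 genes for auxiliary and scaffold proteins: the transmembrane AMPA receptor regulatory proteins (TARPs) Cacng2 (stargazin), Cacng3 and Cacng8, the cornichons Cnih2 and Cnih3, and the multi-PDZ scaffold Grip1. The genes were chosen by symbol, matching the gene identifiers of the tables to the GENCODE M21 annotation. All 10 were found among the 31053 genes of the tables, and all 10 were among the 12336 genes with enough counts to be tested.

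The neurons were wild-type (WT) cells grown from late-embryonic C57BL/6J mouse cortex, with floxuridine in the culture protocol to limit dividing cells. RNA bound by the endogenous ribosomal protein RPS2, a component of the small ribosomal subunit, was recovered by eCLIP (enhanced crosslinking and immunoprecipitation) in 2 libraries (RPS2 IP 1 and 2), and 2 libraries of total RNA (total RNA 1 and 2) came from the material before immunoprecipitation. Both groups thus share genotype and culture. GEO's labels name a ribosomal RNA depletion for the IP and none for total RNA, whereas the study's methods describe depletion without setting the groups apart. The comparison of RPS2 IP with total RNA within a replicate number asks which mRNAs were recovered with RPS2 more or less than their abundance would give. If the IP alone was depleted, an effect of the depletion and binding by RPS2 cannot be told apart in this comparison.

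The libraries held 16460545 and 9941486 counts in the IP, against 5281196 and 4899718 in total RNA, of which the single gene Gm42418 took between 15.3 and 42.6%. Across all genes tested, IP and total RNA of the same number were more alike (Pearson correlation of log2 CPM 0.975 and 0.974) than libraries of different number (0.923 to 0.946). For the 10 members this held less cleanly. The SD of their log2 differences was 0.195 in pair 1 and 0.292 in pair 2, against 0.211 to 0.505 between libraries of different number. IP 2 was thus nearer to total RNA 1 (0.211) than to total RNA 2 for these genes. Markers of neurons summed to between 2744 and 3177 CPM (counts per 1000000 of the library, scaled by the trimmed mean of M-values, TMM), those of excitatory neurons to between 2484 and 2954 CPM and those of GABAergic neurons to between 1103 and 1270 CPM. Astrocyte markers summed to 1629 and 1373 CPM in the replicate 1 libraries and to 452 and 424 CPM in the replicate 2 libraries, microglial markers to 60.1 and 58.8 against 6.83 and 4.93 CPM, and endothelial and mural markers to 32.0 and 34.7 against 7.19 and 10.4 CPM. All 5 astrocyte markers had counts in every library, whereas of the 5 microglial markers Cx3cr1, Aif1 and P2ry12 were at 0 in at least 1 library, and the endothelial marker Cldn5 was at 0 in all 4. Most of the endothelial and mural sum came from Pdgfrb (22.5 and 20.9 against 5.03 and 5.75 CPM) and Col1a1 (7.95 and 12.5 against 1.44 and 2.96 CPM). Pecam1 (0.223 to 0.493 CPM) and Flt1 (0.449 to 1.23 CPM) were near 0, and both were slightly higher in total RNA 2 than in total RNA 1. In RNA pooled from a whole culture, fewer cells of a type and less RNA per cell cannot be told apart.

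The pore subunits differ from each other at a few positions that decide how the channel behaves. The codon of the Q/R site lies in the loop that lines the pore. In Gria2 transcripts this codon is edited by ADAR2 (Adarb1), which makes channels holding GluA2 nearly impermeable to calcium. The reference sequence around this codon is shown for each subunit, 5′ to 3′ on the coding strand from the GENCODE M21 transcripts (mm10), with the Q/R codon in capitals, because this codon decides the calcium permeability of the channel.
Gria1: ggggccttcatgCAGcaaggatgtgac
Gria2: ggtgcctttatgCAGcaaggatgcgat
Gria3: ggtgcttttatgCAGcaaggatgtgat
Gria4: ggtgcctttatgCAAcaaggatgtgac
The window lies in exon 11 of 16 of Gria1 (chr11:57243082-57243108, plus strand, codon 600), in exon 11 of 16 of Gria2 (chr3:80706899-80706925, minus strand, codon 607), in exon 11 of 16 of Gria3 (chrX:41610253-41610279, plus strand, codon 612) and in exon 12 of 17 of Gria4 (chr9:4464125-4464151, minus strand, codon 608). All 4 codons encode glutamine in the genome. The tables count reads per gene and hold no base calls, so the editing of Gria2 was not measured here.

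The C-terminal ends of these proteins set their partners. The end of the coding sequence is printed with the coding bases in capitals and the stop codon in lower case. In Gria2 and Gria3 it encodes the PDZ ligand that GRIP1 and PICK1 bind, and in the TARPs the ligand that the synaptic scaffold PSD-95 binds.
Gria1: GCCACAGGATTGtaa
Gria2: AGTGTTAAAATTtag
Gria3: AGTGTTAAGATCtag
Cacng2: ACCACGCCCGTAtga
Cacng3: ACCACGCCTGTCtga
Cacng8: ACCACGCCCGTGtag
These ends lie at chr11:57327632-57327646 (Gria1, plus strand), chr3:80689106-80689120 (Gria2, minus), chrX:41672450-41672464 (Gria3, plus), chr15:77995149-77995163 (Cacng2, minus), chr7:122768832-122768846 (Cacng3, plus) and chr7:3415591-3415605 (Cacng8, plus). Coding sequences were aligned for 1 annotated transcript per gene. Aligned bases were identical at between 69.9 and 72.8% of positions among pore subunits, between 67.0 and 72.8% among TARPs and at 77.2% between Cnih2 and Cnih3. The annotated coding sequence used for Cacng8 did not begin with ATG, so it may be incomplete at its start. The longest run of identical bases in these 10 comparisons was 37, between Gria3 and Gria4, and pairs across roles or with Grip1 were not compared. No member overlapped another gene on its own strand. Antisense overlaps covered 5.86% of the exonic length of Cacng2 and 0.728% of that of Cnih2, and counting used the strand.

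The levels of the family were compared as RPKM, which is CPM per kilobase of the exonic length used in counting. In total RNA the cornichon Cnih2, which escorts receptors from the endoplasmic reticulum and slows their gating, had the highest level with 59.4 and 51.96 RPKM. Cacng8, a TARP best known from hippocampal and cortical principal neurons, followed with 58.8 and 46.7 RPKM. The ranges of these 2 genes overlapped. Gria1, the subunit added to synapses during activity, had 31.4 and 28.8 RPKM, and Cacng3 had 32.7 and 25.0 RPKM, again overlapping. Cacng2, the founding TARP, had 24.4 and 24.0 RPKM, below both Cacng3 libraries. Gria2 had 16.7 and 13.6 RPKM, Gria3 had 15.5 and 13.5 RPKM, and Cnih3 had 17.0 and 11.4 RPKM. These 3 genes could not be ordered by their spread. Grip1 with 4.67 and 7.11 RPKM and Gria4 with 5.65 and 3.34 RPKM were lowest and also overlapped. Among all protein-coding genes tested, 96.5% had a lower mean RPKM in total RNA than Cnih2, 91.8% than Gria1, 82.7% than Gria2 and 55.1% than Gria4.

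The order in the RPS2 IP was close to that in total RNA. Cnih2 was again highest with 57.5 and 56.6 RPKM, now above both libraries of Cacng8 with 49.3 and 39.3 RPKM. Cacng3 (37.1 and 23.5 RPKM) and Gria1 (31.7 and 24.4 RPKM) overlapped, and Cacng2 (21.2 and 23.9 RPKM) stood below both Gria1 libraries. Gria2 (19.9 and 15.7 RPKM), Cnih3 (19.3 and 14.9 RPKM) and Gria3 (17.6 and 12.8 RPKM) formed an overlapping group. Gria4 (6.37 and 4.402 RPKM) and Grip1 (4.02 and 4.92 RPKM) were lowest.

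The position of Gria2 in this order depended on the length by which its counts were divided. Its counted exonic length was 15548 bases, of which 18.03% was annotated as coding, the count model joining all its transcripts. For Gria1 the same values were 6043 bases and 46.9%. For the coding scale the counts of all exons, untranslated parts included, were divided by the coding length alone. Per kilobase of coding length, Gria2 had 110 and 87.1 CPM in the IP, against 92.4 and 75.5 in total RNA, the highest of the 4 pore subunits in each library. Gria1 had 67.6 and 52.1 in the IP, against 66.9 and 61.4 in total RNA on that scale. Cacng2 also stood higher in this order, at 128 ± 11.1 (SD, n = 2) in the IP and 138 ± 1.82 in total RNA, beside Cnih2 with 139 ± 1.61 and 136 ± 12.9. Gria4 and Grip1 were the lowest on both scales.

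**Figure D1:**
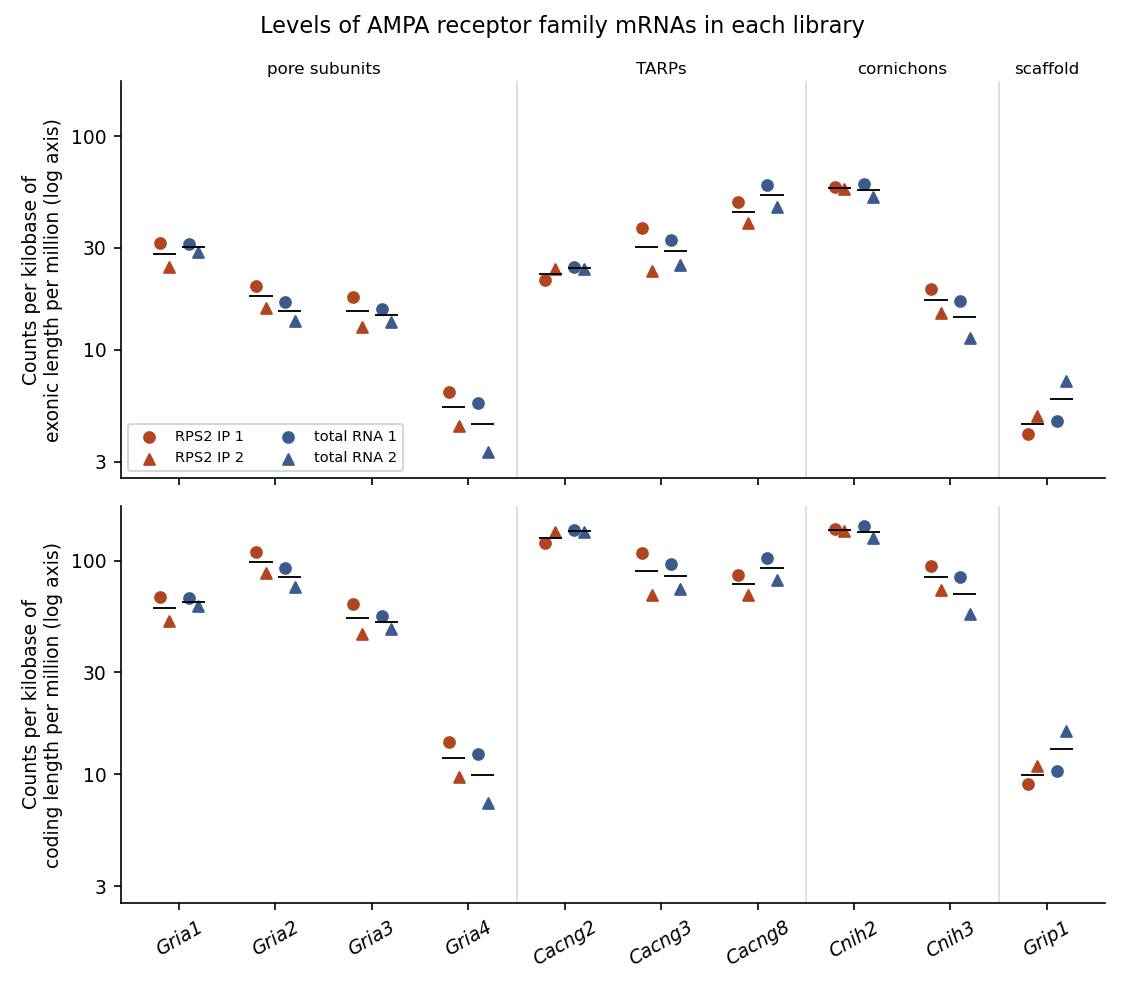
Level of each gene in each library on a log axis, as CPM per kilobase of exonic length (top) and of coding length (bottom). Circles are replicate 1, triangles replicate 2, and black bars the mean of 2 libraries. Cnih2 lies near the top and Gria4 and Grip1 at the bottom of both panels, whereas Gria2 lies below Gria1 in the top panel and above it in the bottom panel.

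Of the 10 genes, 1 was called between RPS2 IP and total RNA. Grip1 was lower in the IP, and no member was called higher (edgeR quasi-likelihood test with the replicate number as a block, Benjamini-Hochberg adjusted p under 0.05). Over all genes tested 14.2% were called, 6.63% higher and 7.55% lower, and of the 5003 genes that reached 100 counts in each library, as all members did, 25.9% were called. At an unadjusted p under 0.05 stood 4 of the 10 members (Gria2, Cacng8, Cnih3 and Grip1) beside 26.1% of all genes. That share was not taken for genes of like depth, so 4 of 10 cannot be read as an excess. DESeq2, which called 11.5% of the genes it gave an adjusted p, called 0 members, and limma-voom, which called 13.1% of all genes, called 0 members higher and Grip1 lower. The fitted log2 fold changes of the members ran from -0.39 to 0.28 with a median of 0.044, beside a median of 0.011 over all genes. A log2 ratio of 0 means that a gene took the same share of the scaled IP as of the scaled total RNA library. Both pairs of libraries gave the same sign for 6 of the 10 members (60%), beside 66.5% of all genes. The blocked test had 1 residual degree of freedom and took its spread wholly from the trend over all genes, and nothing in the sources says whether the 2 replicates were separate cultures, so p-values may measure technical spread.

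Grip1 brings AMPA receptors to dendrites and anchors GluA2 and GluA3 through its PDZ domains. It had 449 and 442 counts in the IP libraries and 169 and 349 in total RNA, which gave 32.5 and 39.7 CPM against 37.6 and 57.4 CPM. The IP was below total RNA in each pair, although the groups overlapped, because IP 2 stood above total RNA 1. The fitted change was a log2 fold change of -0.39 ± 0.13 (SE; fold 0.765, adjusted p = 0.0240 by edgeR). Pair 1 gave -0.21, with a 95% interval for counting error from -0.47 to 0.050, and pair 2 gave -0.53 (-0.74 to -0.32). The change was larger in the second pair, in which total RNA 2 held the highest Grip1 value of the 4 libraries. Without the block the edgeR adjusted p was 1.00 at a log2 fold change of -0.40, and in unblocked fits without 1 library each the value ran from -0.67 without total RNA 1 to -0.064 without total RNA 2, with -0.26 without RPS2 IP 1 and -0.56 without RPS2 IP 2. Of 9 fits with the block, 6 called Grip1, with log2 fold changes from -0.47 to -0.27. The call was lost with no filter on low counts (adjusted p = 0.0734), with an offset for GC content and exonic length (0.199), under which 7.41% of all genes were called, and with DESeq2 (0.253).

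Among the pore subunits, Gria2 had 309 and 244 CPM in the IP and 259 and 212 CPM in total RNA, higher in the IP of each pair by nearly the same amount. The pair ratios were 0.25 (0.16 to 0.35) and 0.21 (0.11 to 0.30) on the log2 scale, and both counting intervals lay above 0. The fitted log2 fold change was 0.23 ± 0.099 (SE), which did not pass (edgeR adjusted p = 0.104). Gria1 had 192 and 148 CPM against 190 and 174 CPM. Its pair ratios were 0.014 (-0.098 to 0.13) and -0.24 (-0.35 to -0.12), so that only the second pair lay below 0, and the fit gave -0.11 ± 0.10 (edgeR adjusted p = 0.527). Gria3, which pairs with GluA2 in many cortical receptors, had 174 and 126 CPM against 153 and 133 CPM. The pairs went opposite ways, with ratios of 0.19 (0.066 to 0.31) and -0.080 (-0.21 to 0.046), and the fit gave 0.055 ± 0.10 (edgeR adjusted p = 0.794). Gria4, a subunit of fast-gating receptors, had the fewest counts of the 4, between 128 and 556 per library. It had 40.2 and 27.8 CPM in the IP and 35.6 and 21.04 CPM in total RNA, with wide counting intervals around the pair ratios of 0.17 (-0.083 to 0.44) and 0.40 (0.098 to 0.71). Its fitted value was 0.28 ± 0.14 (edgeR adjusted p = 0.201).

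Of the TARPs, which carry AMPA receptors to the surface and tie them to the postsynaptic density, none was called. Cacng8 had 115 and 92.2 CPM in the IP and 138 and 109 CPM in total RNA. Both pairs gave nearly the same ratio, -0.26 (-0.39 to -0.12) and -0.25 (-0.39 to -0.10), and the fitted value was -0.25 ± 0.11 (edgeR adjusted p = 0.0938). Cacng8 had the highest GC content of the members, 64.1%, and under the offset its log2 fold change was 0.0037. GC content was taken over all annotated transcripts of a gene, so bases shared by several transcripts counted more than once. Cacng2 had 117 and 132 CPM against 134 and 132 CPM and was the 1 member of 10 whose groups did not overlap, by less than 1 CPM between IP 2 and total RNA 2. Groups did not overlap for 31.8% of all genes tested. The fit for Cacng2 gave -0.10 ± 0.10 (edgeR adjusted p = 0.585). Cacng3 had 103 and 65.2 CPM against 90.9 and 69.4 CPM, with pair ratios of opposite sign, 0.18 (0.021 to 0.34) and -0.089 (-0.26 to 0.087), and a fitted value of 0.049 ± 0.11 (edgeR adjusted p = 0.835).

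The cornichons were not called either. Cnih3 had 53.2 and 41.0 CPM in the IP and 46.8 and 31.4 CPM in total RNA. It was higher in the IP of each pair, by 0.19 (-0.037 to 0.41) and 0.38 (0.14 to 0.63), and its fitted value of 0.28 ± 0.13 was the highest of the 10 members (edgeR adjusted p = 0.130). Cnih2 had 71.1 and 70.0 CPM against 73.5 and 64.3 CPM, with ratios of -0.047 (-0.23 to 0.14) and 0.12 (-0.055 to 0.30) and a fitted value of 0.038 ± 0.11 (edgeR adjusted p = 0.879). Its IP libraries differed by little more than 1 CPM, so Cnih2 was among the most even members in the data.

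**Figure D2:**
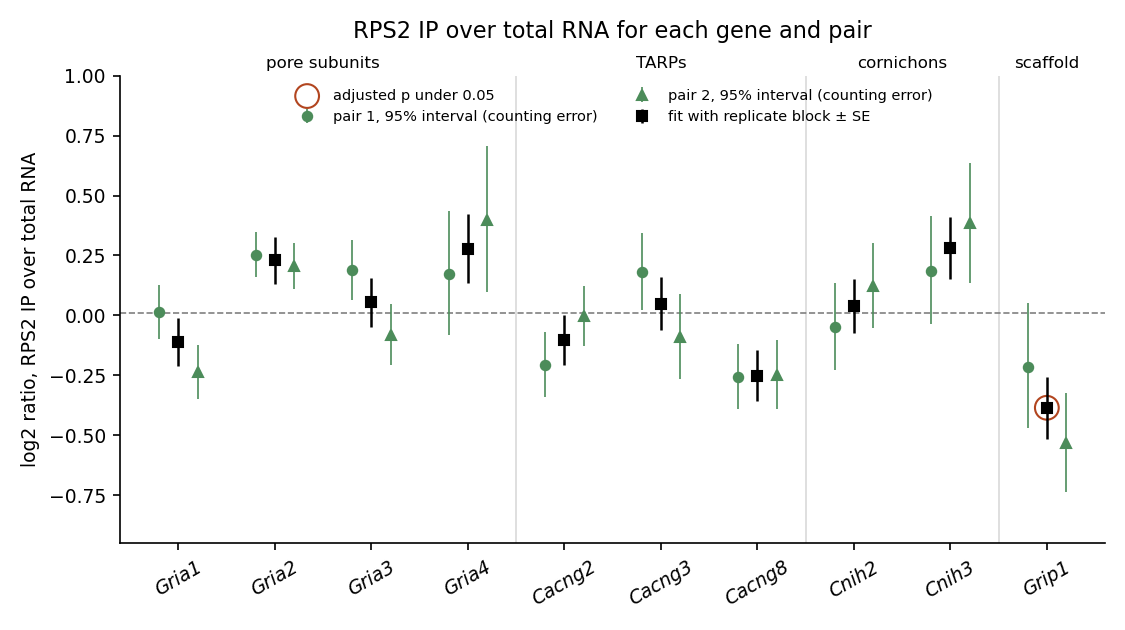
Log2 ratio of RPS2 IP over total RNA for each gene. Green circles and triangles are pair 1 and pair 2 with 95% counting intervals, black squares the blocked fit ± SE, the dashed line the median of all genes tested at 0.011, and the open circle marks Grip1, the 1 gene with an adjusted p under 0.05.

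The fit also bounds what these libraries could show. The fitted values and their SE gave 95% intervals from -0.31 to 0.086 for Gria1, 0.036 to 0.42 for Gria2, -0.15 to 0.26 for Gria3 and -0.0047 to 0.56 for Gria4. For the auxiliary proteins they were -0.31 to 0.10 for Cacng2, -0.17 to 0.27 for Cacng3, -0.46 to -0.044 for Cacng8, -0.18 to 0.26 for Cnih2 and 0.031 to 0.53 for Cnih3, and for Grip1 -0.64 to -0.13. None of the 10 intervals reached a log2 change of 1 in either direction, within the spread this fit assumes.

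Taken by role, the median log2 fold change was 0.14 for the pore subunits and -0.032 for the auxiliary and scaffold genes. The medians in pair 1 were 0.18 and -0.13, and in pair 2 they were 0.063 and -0.045. With the offset for GC content and exonic length they were 0.084 and 0.013, so that the gap went from 0.17 to 0.071 and the second median turned positive. Within the second group the median was -0.10 for the 3 TARPs and 0.16 for the 2 cornichons. Under the offset these medians were 0.0037 and 0.22. Of the pore subunits 3 of 4 had positive fitted values, of the TARPs 1 of 3 and of the cornichons 2 of 2. Summed over the 4 pore subunits, counts gave log2 ratios of 0.17 (0.11 to 0.23) in pair 1 and 0.015 (-0.046 to 0.077) in pair 2. Summed over the TARPs the ratios were -0.12 (-0.20 to -0.034) and -0.10 (-0.19 to -0.021), and over the cornichons 0.048 (-0.092 to 0.19) and 0.21 (0.070 to 0.36). The summed TARP ratio was thus below 0 in both pairs, whereas the summed pore and cornichon ratios each left 0 in 1 pair only. The sums carry no offset. Among the TARPs, Cacng8 alone had both counting intervals below 0, and its fitted value was 0.0037 under the offset. The sum is therefore not a result shared by the 3 TARPs. Over all 10 genes the summed ratios were 0.059 and -0.026.

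The division of counts among the pore subunits differed between the libraries of each pair. Gria2 took 43.2% (95% exact Clopper-Pearson interval 42.2 to 44.2%) and 44.7% (43.5 to 46.0%) of pore-subunit counts in the IP, and 40.7% (38.9 to 42.5%) and 39.2% (37.5 to 40.9%) in total RNA. Gria1 took 26.8% (25.9 to 27.7%) and 27.04% (25.9 to 28.2%) in the IP, and 29.8% (28.1 to 31.5%) and 32.2% (30.6 to 33.8%) in total RNA. Gria2 thus held a larger and Gria1 a smaller share in both IP libraries than in either total RNA library. Gria3 stayed between 23.1 and 24.7% in all 4 libraries, and Gria4 between 3.89 and 5.62%. These intervals and those of the pair ratios cover counting error only. Whether reads were collapsed to molecules is not given in the sources used here, and copies of 1 molecule are not independent. With levels per exonic kilobase, which changes the size but not the direction, the Gria2 share was 26.8 ± 0.787% (SD, n = 2) in the IP and 23.5 ± 0.800% in total RNA, and the Gria1 share 42.3 ± 0.460% and 47.0 ± 2.26%.

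**Figure D3:**
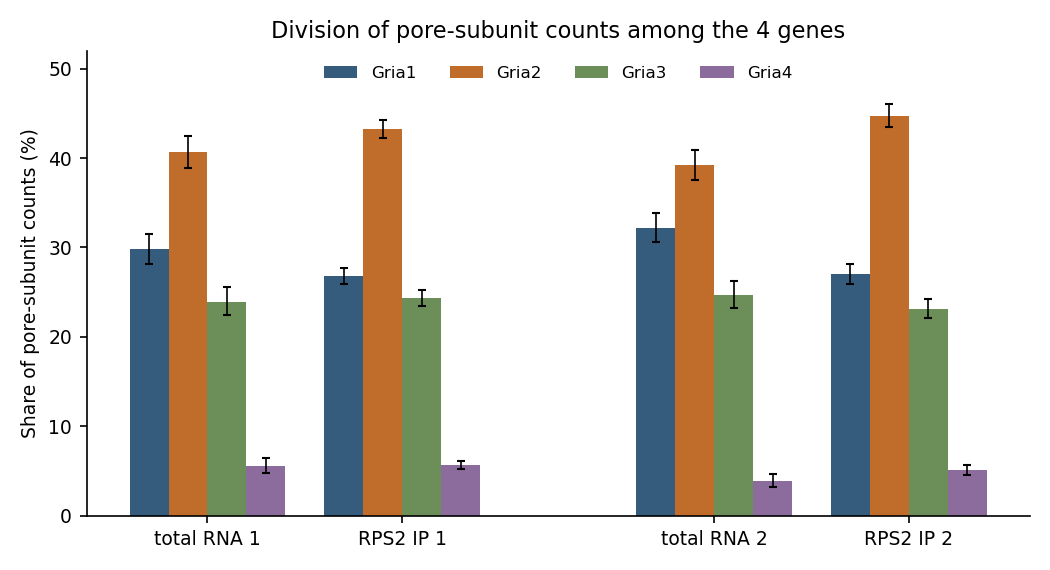
Share of the summed pore-subunit counts taken by each of the 4 Gria genes in each library, with 95% exact counting intervals, the libraries of a pair side by side. Gria2 is higher and Gria1 lower in the IP than in total RNA of each pair.

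A ratio of 2 genes within a library needs no scaling between libraries. The counts of Gria1 over those of Gria2 were 0.620 and 0.604 in the IP libraries and 0.732 and 0.822 in total RNA. The difference in log2 ratio, IP minus total RNA, was -0.24 (95% counting interval -0.38 to -0.093) in pair 1 and -0.44 (-0.59 to -0.30) in pair 2. With 2 libraries a group the exact two-sided permutation test could give no p below 0.333, and it gave p = 0.333 (0.667 adjusted over 10 gene pairs). These 10 pairs, all those of pore subunits, TARPs or cornichons with each other, were formed after the values of the genes had been seen. In 5 of the 10 the groups did not overlap (50%), beside 32.7% of all pairs that the 5003 genes reaching 100 counts in each library can form, and 4 of these 5 were pairs of pore subunits, which share genes. Among the TARPs, Cacng3 over Cacng8 was 0.892 and 0.707 in the IP, against 0.659 and 0.634 in total RNA, higher in the IP by 0.44 (0.23 to 0.64) and 0.16 (-0.065 to 0.38) on the log2 scale. Cnih2 over Cnih3 was 1.34 and 1.71 against 1.57 and 2.05, and its groups overlapped.

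The family also varied between the replicates. In replicate 2, the log2 CPM of 8 members in the IP and 9 in total RNA was lower than in replicate 1. The difference was -0.66 and -0.39 for Cacng3, -0.53 and -0.75 for Gria4 and -0.38 and -0.57 for Cnih3, in IP and total RNA, and -0.34 and -0.29 for Gria2. Grip1 was the member that was higher in replicate 2 in both kinds of library, by 0.29 and 0.61, and Cacng2 differed by 0.18 in the IP and by -0.027 in total RNA. For 9 of the 10 members, all but Cacng2, the step between the total RNA libraries was larger than the fitted change between IP and total RNA. Replicate 1 had the higher astrocyte and microglial marker sums and the higher Pdgfrb and Col1a1 levels given above in both kinds of library, and their part in the difference was not tested. By profile over the 4 libraries, as log2 CPM centred on each gene's mean, Gria4 and Cnih3 were each other's nearest member (root mean square difference 0.085), as were Gria1 and Gria3 (0.092) and Cacng2 and Cnih2 (0.12). Grip1 had the largest distance to its nearest member, 0.26 to Cacng2. The other genes nearest to the mean profile of the pore subunits, of those with a mean of at least 10 CPM, were Vezt (0.012), Naxd (0.018) and Kcnk1 (0.023).

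**Figure D4:**
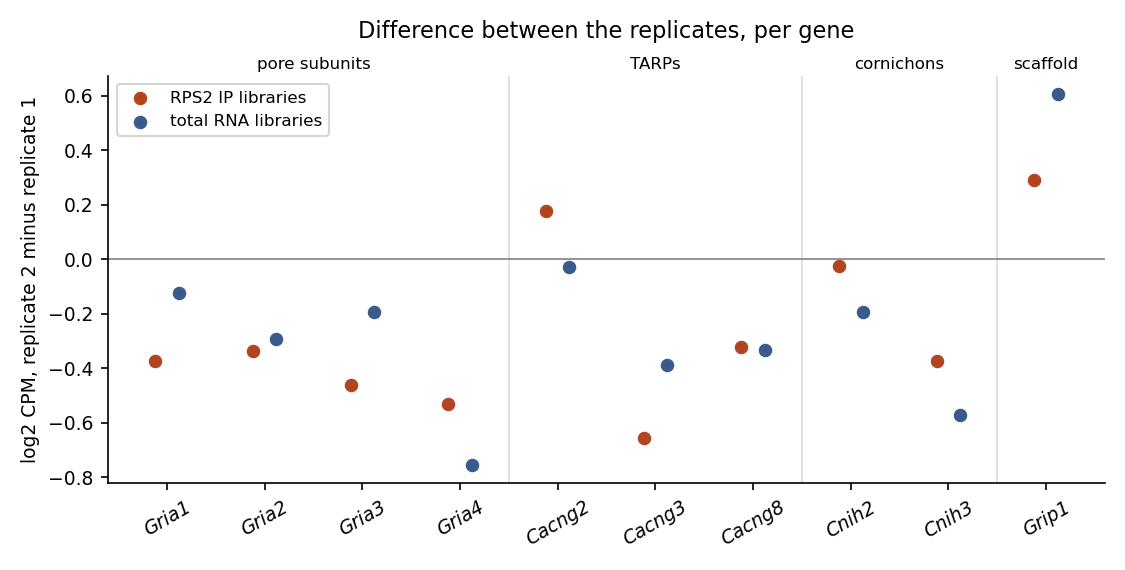
Difference in log2 CPM between replicate 2 and replicate 1 for each gene, in the IP libraries (red) and in the total RNA libraries (blue). Most genes lie below 0 and Grip1 lies above 0 in both, with the larger step in total RNA.

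Receptor assembly and delivery need more proteins than these. In a wider list of 18 auxiliary and assembly proteins, 17 were tested, of which 5 were called higher in the IP and 1 lower (Prrt2 fell below the count filter). These 6 are 35.3% of the 17, beside 14.2% of all genes and 25.9% of those reaching 100 counts in each library. Cnih1, the broadly expressed cornichon, had the highest value, with 29.6 and 35.2 CPM in the IP against 16.3 and 22.0 CPM in total RNA, a log2 fold change of 0.76 ± 0.16 (edgeR adjusted p = 5.7e-05). The type II TARPs Cacng5 (0.47, edgeR adjusted p = 0.0113) and Cacng7 (0.35, 0.0186) were also higher, as were Frrs1l (0.34, 0.0403), needed for receptor biogenesis in the endoplasmic reticulum, and Nrn1 (0.36, 0.00821), the GPI-anchored neuritin. Shisa8, of a family of receptor modulators, was lower at 16.0 and 10.9 CPM against 24.3 and 18.9 CPM (-0.69 ± 0.19, edgeR adjusted p = 0.00312). Cnih1 differed from Cnih2 and Cnih3 in that it passed the test. Whether its change differed from theirs was not tested. Under the offset, Cacng5 and Cacng7 still passed (edgeR adjusted p = 0.0328 and 0.0107), and Cnih1 (0.0781), Frrs1l (0.246), Nrn1 (0.626) and Shisa8 (0.276) did not. Prrt1, not called without the offset (0.28, edgeR adjusted p = 0.0604), was called higher under it (0.43, 0.00173). DESeq2, which gave Cnih1 and Shisa8 no adjusted p, called 0 of the 17, and limma-voom called 4 higher and 1 lower.

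Of 17 other scaffolds and trafficking partners, all tested, 1 was higher and 3 were lower, together 23.5%, beside the same 14.2% and 25.9%. Nsf, the ATPase that binds GluA2 and takes part in receptor cycling, had 510 and 722 CPM in the IP against 368 and 628 CPM in total RNA (0.33 ± 0.099, edgeR adjusted p = 0.00961). Arc, which drives AMPA receptor endocytosis, was lower in the IP of each pair, with 122 and 232 CPM against 155 and 312 CPM (-0.39 ± 0.10, edgeR adjusted p = 0.00193). The other two lower genes were Epb41l1, the 4.1N protein that stabilises surface GluA1 (-0.35, edgeR adjusted p = 0.00448), and Nptxr, the neuronal pentraxin receptor (-0.31, 0.0168). Grip2, the paralog of Grip1, had 25.2 and 16.6 CPM against 30.3 and 25.0 CPM and did not pass (-0.42 ± 0.16, edgeR adjusted p = 0.0523). Under the offset Nsf still passed (edgeR adjusted p = 0.0109) and Arc, Epb41l1 and Nptxr did not (0.103, 0.676 and 0.868). Dlg2, not called without the offset (0.27, edgeR adjusted p = 0.0513), was called higher under it (0.29, 0.0452). DESeq2 called 0 of the 17 genes higher and 3 lower, and limma-voom 2 higher and 3 lower. Of the 2 editing enzymes, Adarb1 had 135 and 148 CPM in the IP against 165 and 168 CPM, with a log2 fold change of -0.24 (edgeR adjusted p = 0.107), and Adar had -0.15 (0.366).

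The other ionotropic glutamate receptors had a lower median. Of 14 genes, 13 were tested (Grin3b fell below the filter), 0 were higher and 3 were lower, with a median log2 fold change of -0.12 beside 0.14 for the AMPA pore subunits. The 3 called are 23.1% of the 13, beside 14.2% of all genes and 25.9% of the deeper ones. No difference between these families was tested. The lowest was Grik5, a kainate receptor subunit, with 211 and 143 CPM in the IP against 311 and 196 CPM in total RNA (-0.51 ± 0.099, edgeR adjusted p = 1.9e-05). Grik3 (-0.45, edgeR adjusted p = 0.00724) and the NMDA receptor subunit Grin2d (-0.43, 0.00455) were also lower. The 5 kainate subunits had a median of -0.44 and the 6 NMDA subunits tested a median of -0.075. Under the offset, Grik5, Grik3 and Grin2d did not pass (edgeR adjusted p = 0.262, 0.293 and 0.730), the value of Grin2d was 0.095, and the medians were -0.19 for the kainate and 0.090 for the NMDA subunits. The NMDA receptor subunit Grin1, not called without the offset (-0.027, edgeR adjusted p = 0.911), was called higher in the IP under it (0.31, 0.0468). At an unadjusted p under 0.05 stood 5 of the 13 in the blocked edgeR fit (38.5%, beside 26.1% of all genes), of which 0 were higher. Here too the share was not taken for genes of like depth. DESeq2 called 0 higher and 1 lower, and limma-voom 0 higher and 3 lower.

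GC content moved with the IP ratio over all genes, with a Spearman correlation of -0.315 between GC percent and log2 fold change across 12328 genes and -0.345 across the 10 members, which share the same 4 libraries and are not independent replicates. The members spanned 41.3% GC in Gria2 to 64.1% in Cacng8. Annotated coding length had a stronger correlation with the ratio over all genes, -0.432 across 12159 genes, and -0.248 across the members. Exonic length had -0.171 over all genes and, with the opposite sign, 0.152 across the members. The offset took in GC content and exonic length but not coding length, which was longest among the members in Grip1 (3615 bases). Under the offset the log2 fold changes were -0.12 for Gria1, 0.23 for Gria2 and 0.28 for Cnih3, each close to the value without it. Gria3 went from 0.055 to -0.0012, Gria4 from 0.28 to 0.17, Cnih2 from 0.038 to 0.17 and Grip1 from -0.39 to -0.27.

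**Figure D5:**
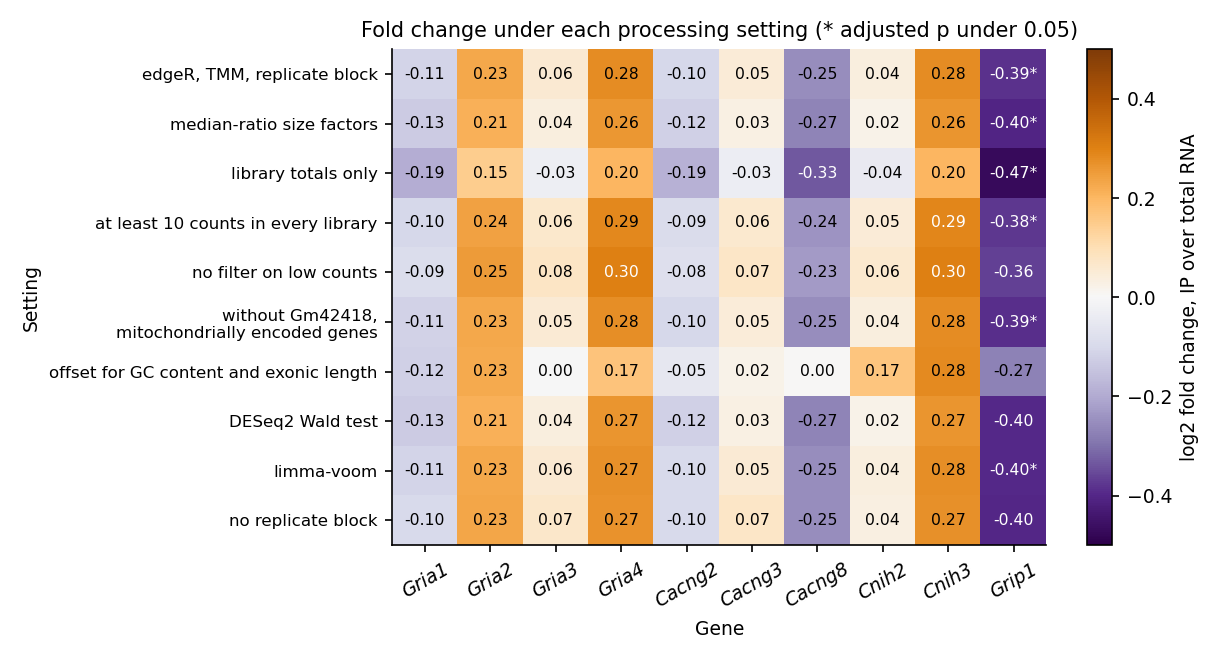
Log2 fold change of each gene (IP over total RNA) under the blocked edgeR test in the first line and under each alternative setting, with an asterisk where the adjusted p was under 0.05. Asterisks stand for Grip1 alone, and Cacng8 goes from -0.25 to near 0 under the offset.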

How the data were processed

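The deposited tables hold raw read counts per gene for each library (1 table each, 4 in all). Per the study's methods the authors sequenced single-end reads and aligned them with STAR; per the file headers they counted with featureCounts 1.5.3 on mm10 in forward-stranded mode, which by default leaves out reads at several loci. Read length and deduplication are not given in the sources used here. All columns were used.

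From these counts, edgeR 4.0.16 (R 4.3.3) fitted a quasi-likelihood model after filterByExpr and TMM scaling, with IP against total RNA and the replicate number as a block, two-sided, and Benjamini-Hochberg adjustment over 12336 genes (threshold 0.05). SE is the unshrunk log2 fold change over the root of F. The block follows the methods, which take total RNA from the same samples, and deviations from the group means of same-numbered libraries correlated at 0.733. Pair ratios are scaled count ratios with exact binomial intervals, and levels per kilobase use the counted exonic length or the annotated coding length. Alternatives were no block, DESeq2 1.42.0, limma 3.58.1, other scalings, filters, an offset for GC content and length, and libraries left out. The script was tested on simulated counts. Sequences came from the GENCODE M21 transcripts and annotation (mm10). All 10 members are named. From each wider list the highest and the lowest called genes are named by rule. Other called genes, genes called only under the offset, and Grip2 were added after their values were seen. Members, lists and tests were chosen with earlier results of these data known. Members held between 128 and 4273 counts per library, so the counting intervals of pair ratios were narrowest for Gria2 and among the widest for Gria4.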

Additional observations from a re-analysis of the deposited data

How the results depend on the processing

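The single call among the members rested on the replicate block. Under the replicate block 1 member was lower, and without it 0 members and 0 genes in all were called, with 349 genes at an unadjusted p under 0.05. The number of members lower was also 0 with no filter on low counts, under the GC and length offset, with DESeq2 (where 158 genes rose and 382 fell, beside 818 and 931 in the main test, and 7653 had no adjusted p) and in each fit without 1 library, where the lone library of a group was taken to vary like the other group. Limma-voom, both other scalings, the stricter filter and leaving out Gm42418 with the mitochondrial genes each called Grip1. Directions near 0 changed: with library totals only, Gria3 was at -0.028, Cacng3 at -0.033 and Cnih2 at -0.045, while the median of all genes went from 0.011 to -0.073, the auxiliary median to -0.12 and calls to 283 higher and 878 lower. Under the offset Gria3 was at -0.0012 and Cacng8 at 0.0037, the pore minus auxiliary median fell to 0.071 from 0.17, with 586 genes higher and 328 lower. With a library or replicate left out, log2 fold changes ran from -0.30 to 0.064 for Gria1, -0.18 to 0.27 for Gria3, -0.072 to 0.69 for Gria4, -0.30 to 0.35 for Cacng3 and -0.062 to 0.13 for Cnih2. Over the same sets the median of the members ran from -0.10 to 0.17, of the pore subunits from -0.10 to 0.33 and of the auxiliary and scaffold genes from -0.14 to 0.029, and the pore minus auxiliary median from 0.037 to 0.36. By coding length the pore shares in the IP were 26.7% for Gria1, 44.1% for Gria2, 24.0% for Gria3 and 5.27% for Gria4, and in total RNA 30.7, 40.0, 24.6 and 4.67%. The causes of these changes were not tested. Gria2, Cacng2, Cnih3 and Grip1 kept their sign in every setting run. At 128 to 556 counts per library, the counting intervals of Gria4 pair ratios were wider than its fitted change.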
